A study of Mus musculus with 6 samples.

Results

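Actin cytoskeleton genes and targets of serum response factor (SRF) were followed in cultured mouse macrophages that did or did not receive oxidised low-density lipoprotein (oxLDL). The set holds 52 genes, chosen by symbol for their part in building, capping, crosslinking or pulling actin filaments, out of 24054 gene symbols in the deposited tables. The choice was made with earlier results of these data known, so the members' shares below are not independent of these data. All 52 symbols were found. Myl9, the smooth muscle type myosin regulatory light chain, had 0 counts in all 6 libraries, which allows at most 0.265 CPM (counts scaled to 1e+06 per library) in the shallowest one, and the other 51 passed the filter on low counts. Of these, 48 reached 5 CPM in at least 1 wild-type library, while Fscn1, Tpm2 and Cnn3 stayed below 3 CPM in every library.

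Macrophages were grown from marrow of mice on the C57BL/6 background over 7 days, in L929-conditioned medium. They then spent 24 hours with oxLDL at 50 µg/ml or without it. The donors were either wild type (WT) or Kindlin3-integrin mutant, titled KI, and the labels give no other detail of the allele. Kindlin-3 binds integrin tails in blood cells and couples integrins to actin. Mutant cells gave 2 libraries without and 2 with oxLDL, and wild-type cells gave 1 of each, 6 in all, with total counts from 11281692 to 24273551. Values below are listed for the 2 mutant libraries in order of replicate and then the wild-type one. Whether the mutant pairs are separate animals, separate cultures or repeat preparations is not stated, and the p-values therefore measure only the spread between these libraries, which may be technical.

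Actin exists as a pool of monomers and as filaments. The Arp2/3 complex starts branches from existing filaments when WASP or WAVE proteins activate it, capping proteins stop growth at barbed ends, cofilin takes filaments apart, and myosin II pulls on them. Macrophages depend on this machinery to spread, crawl and engulf particles. SRF is a transcription factor that binds a DNA element named the CArG box, and its cofactors of the MRTF family are held in the cytoplasm by free actin monomers, so many actin genes are regulated by the state of actin itself.

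The labelled cell type was checked against marker genes. All 10 macrophage markers had counts in every library, among them the lysozyme gene Lyz2 at 5686 to 20971 CPM and the receptor gene Csf1r at 645.8 to 1949.9 CPM. Of 10 fibroblast and smooth muscle markers, whose cells are rich in contractile actin genes, 2 had counts in every library, and the summed level was 2.51 to 3.97 CPM untreated and 2.24 to 5.11 CPM with oxLDL. Platelet markers summed to 15.5 to 31.3 CPM. Dendritic cell markers summed to 46.1 to 61 CPM in mutant and to 12 and 15.3 CPM in wild-type libraries. Flt3, Zbtb46 and Ccr7 were each at 0 in at least 1 library. Most of the sum was the integrin gene Itgax, at 42.5, 46.6 and 6.14 CPM untreated and 44.5, 58.7 and 13.7 CPM with oxLDL. Xcr1 measured 3.18, 4.81 and 5.22 CPM untreated and 1.54, 1.83 and 1.34 CPM with oxLDL. Of 9 neutrophil markers found, the sum was 45.2 CPM in wild type untreated and 5.18 to 7.36 CPM in the other 5 libraries. A sum over 8 pancreatic genes, a list added after the values were seen, reached 161.9 and 128.6 CPM after oxLDL in the mutant. It was 218.7 CPM in the untreated wild type, and no more than 0.0708 CPM in the other 3 libraries.

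The upstream sequences of some members hold the CArG box, the element that SRF binds. In the RefSeq promoter table for build GRCm38.p6, which runs from 250 bases before to 50 bases after each annotated start, 49 of the 52 members were matched. A CArG box was searched as CC, then 6 bases that are each A or T, then GG, a pattern that is the same on both strands. It was present in 7 of 49 members (14.3%) and in 280 of 16781 genes of the table with a promoter entry (1.67%). The members were Actg1, Arpc4, Cnn2, Myl6, Myl9, Srf and Vcl. The boxes lay between 250 and 41 bases upstream of the start. A stretch with exactly 1 mismatch to the box was no more frequent, in 9 of 49 members (18.4%) against 21.2% of all genes. The set was named for SRF targets, so its share of exact boxes is not independent of that choice. GGGCGG, on either strand, was present in 43 of 49 members (87.8%) against 50.0% of all genes, and TATAAA, on either strand, in 4 of 49 (8.16%) against 14.3%. The 250 bases upstream of 4 of these genes are shown because they cover the range of responses described below, with CArG boxes in capitals and the rest in lower case. Cnn2 is at chr10:79988350-79988599 (+ strand), Actg1 at chr11:120348496-120348745 (- strand), Vcl at chr14:20929148-20929397 (+ strand) and Srf at chr17:46556163-46556412 (- strand), all in GRCm38.p6.
Cnn2: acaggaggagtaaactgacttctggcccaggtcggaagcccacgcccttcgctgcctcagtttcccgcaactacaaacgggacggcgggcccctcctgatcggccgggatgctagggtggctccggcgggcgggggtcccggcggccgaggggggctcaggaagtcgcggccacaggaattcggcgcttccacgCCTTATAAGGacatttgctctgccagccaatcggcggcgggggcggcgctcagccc
Actg1: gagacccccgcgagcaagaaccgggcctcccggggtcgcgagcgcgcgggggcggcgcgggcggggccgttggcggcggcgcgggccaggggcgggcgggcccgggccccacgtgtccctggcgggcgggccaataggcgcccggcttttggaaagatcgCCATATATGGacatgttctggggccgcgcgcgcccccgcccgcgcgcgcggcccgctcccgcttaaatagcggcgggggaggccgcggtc
Vcl: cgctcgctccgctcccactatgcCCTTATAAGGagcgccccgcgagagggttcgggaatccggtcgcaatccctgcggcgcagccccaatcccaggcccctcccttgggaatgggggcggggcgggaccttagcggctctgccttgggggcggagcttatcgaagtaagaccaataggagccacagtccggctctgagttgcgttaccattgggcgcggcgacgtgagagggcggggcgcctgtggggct
Srf: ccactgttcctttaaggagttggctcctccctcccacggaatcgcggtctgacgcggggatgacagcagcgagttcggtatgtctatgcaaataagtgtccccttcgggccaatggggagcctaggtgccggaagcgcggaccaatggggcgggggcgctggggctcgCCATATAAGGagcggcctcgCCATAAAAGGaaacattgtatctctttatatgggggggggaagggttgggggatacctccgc
Srf holds 2 boxes, CCATATAAGG at 82 bases and CCATAAAAGG at 62 bases upstream. The same 10 letters, CCTTATAAGG, are found at 56 bases upstream in Cnn2 and 227 bases upstream in Vcl. Actg1 has CCATATATGG at 90, Myl6 CCTTATATGG at 50, Myl9 CCTAATAAGG at 161 and Arpc4 CCTAATTTGG at 250 bases upstream. These are matches of letters, not measured binding.

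With oxLDL most genes of the actin machinery fell. The 52 genes together took 3.78% and 4.28% of all counts in the mutant untreated and 5.01% in the wild type untreated library, against 2.19% and 2.17% in mutant oxLDL and 2.41% in wild type oxLDL. With 3 oxLDL libraries set against 3 untreated ones and genotype as a covariate, 35 of 51 members were lower, 3 were higher and 13 did not pass (edgeR's quasi-likelihood test, false discovery rate 0.05). Over all 12689 genes tested, 21.4% were lower and 19.1% higher. The members' median log2 fold change was -0.61, against 0.01 for all genes. All 3 oxLDL libraries lay below all 3 untreated ones for 37 members, an order found for 23.3% of all genes, and above them for 3 members, an order found for 24.5%. In RNA from bulk cultures, fewer cells of a type and less RNA per cell cannot be told apart. Macrophage markers moved in the same comparison, with 6 of 10 lower and 2 higher and a summed level of 21173 to 30768 CPM untreated and 10396 to 19639 CPM with oxLDL. Lyz2 was the largest part of that sum in every library and did not pass (log2 fold change -0.55, adjusted p = 0.0939). The called markers ranged from Fcgr1, 9.63-fold lower, to Cd68, 1.86-fold higher. The part of the macrophage markers in the result was not tested.

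**Figure D1:**
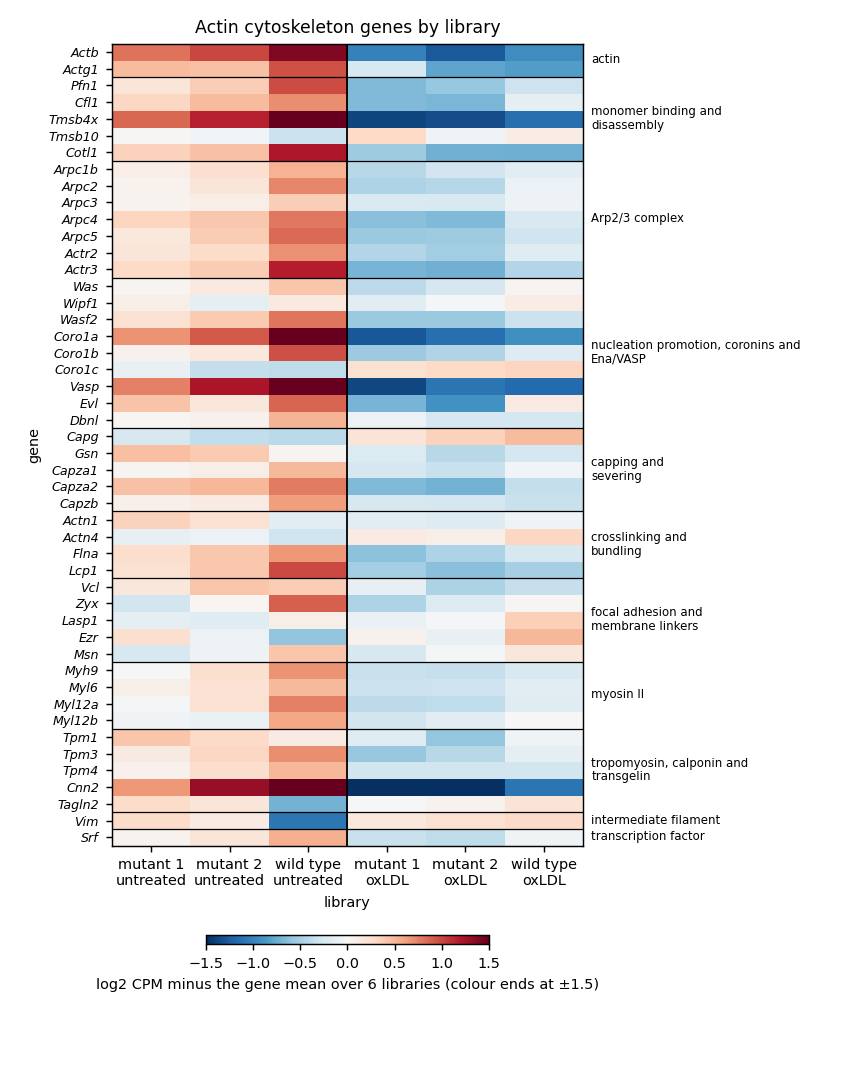
Heat map of the 48 members with a mean above 5 CPM, in rows by role, across the 6 libraries in columns. Colour gives log2 CPM minus the gene's mean over the 6 libraries, red above and blue below, ending at ±1.5. Most rows are red in the 3 untreated and blue in the 3 oxLDL columns, with Capg, Coro1c and Actn4 the other way round.

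Both cytoplasmic actin genes fell. Actb, which encodes beta actin, measured 6949.9, 7901 and 10342 CPM untreated and 1965, 1648 and 2075 CPM with oxLDL. The groups did not overlap, and the wild-type library was the highest of the untreated 3. Its log2 fold change was -2.13 ± 0.16 (SE; adjusted p = 0.00026), or 4.38-fold lower. Actg1, gamma actin, measured 1850.1, 1817 and 2598 CPM untreated and 1131, 771 and 748 CPM with oxLDL (log2 fold change -1.23 ± 0.23, adjusted p = 0.00656). The 2 genes fell unequally. There were 3.76, 4.35 and 3.98 Actb counts per Actg1 count in the untreated libraries and 1.74, 2.14 and 2.78 with oxLDL, without overlap. Acta2, the smooth muscle actin of the fibroblast marker list, measured 1.15, 0.708 and 1.02 CPM untreated and 3.85, 2.63 and 1.92 CPM with oxLDL. At these low levels Acta2 was 2.83-fold higher with oxLDL (edgeR, adjusted p = 0.0191).

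Of 5 members for monomer binding and disassembly, 4 fell with actin and 1 did not pass. Tmsb4x encodes thymosin beta 4, the main monomer-sequestering peptide of leukocytes. Tmsb4x measured 4529, 5590.2 and 8665 CPM untreated and 959, 988 and 1133 CPM with oxLDL. The log2 fold change was -2.56 ± 0.18 (adjusted p = 0.000222), or 5.91-fold lower, with every oxLDL library below every untreated one. Its paralogue Tmsb10 measured 354.6, 340.9 and 279.9 CPM untreated and 432.7, 335.9 and 377.2 CPM with oxLDL, overlapping groups and no call (log2 fold change 0.24 ± 0.13, adjusted p = 0.175). Profilin 1 (Pfn1), which loads monomers with ATP for assembly, was 2.03-fold lower. Cofilin 1 (Cfl1), which severs filaments, was 1.99-fold lower, and Cotl1, a coactosin-like actin-binding protein, was 2.5-fold lower. Of the Cfl1 sequence, 12.5% was shared with other genes, so its counts are uncertain.

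Per kilobase of the longest annotated transcript, Tmsb4x and Actb stood at the head of the set in untreated cells and lost most of that lead. Tmsb4x measured 5242, 6470.1 and 10029 CPM per kilobase untreated and 1109.7, 1144.0 and 1311.7 with oxLDL. Actb measured 3619.7, 4115 and 5386.4 untreated and 1023.5, 858.3 and 1080.8 with oxLDL. Vim, the intermediate filament gene vimentin, measured 1050.2, 1111.2 and 1154.7 CPM per kilobase with oxLDL, within the range of Actb and Tmsb4x in the same libraries.

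**Figure D2:**
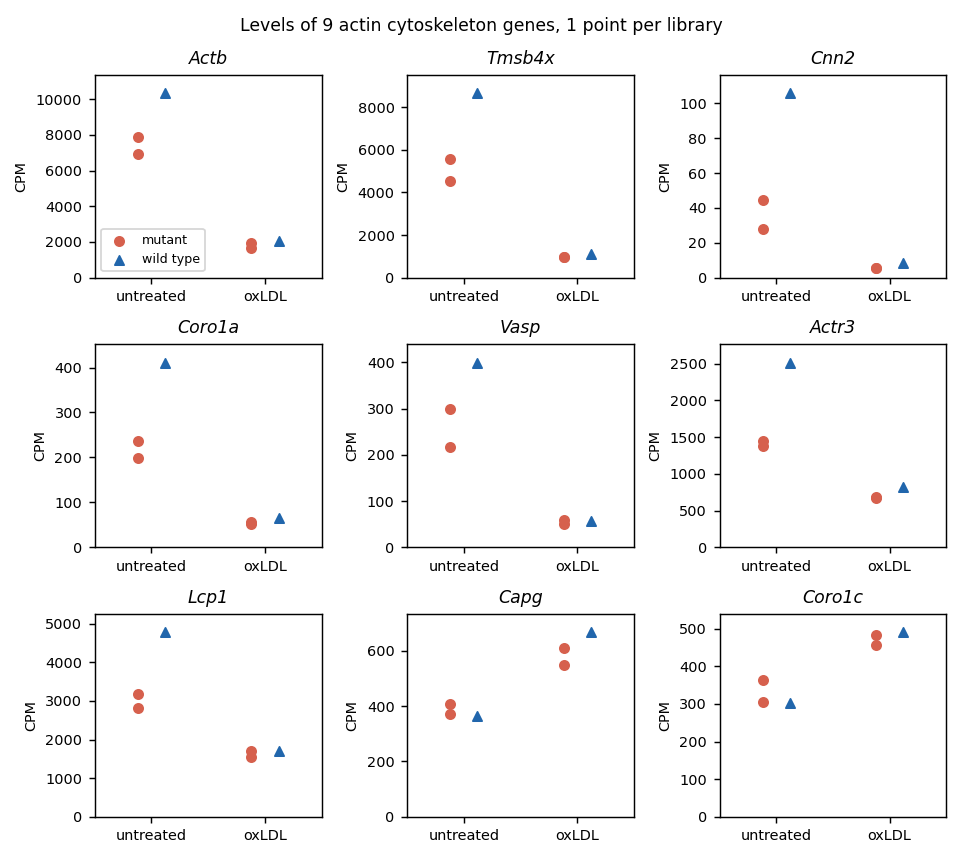
CPM of 9 members in each library, untreated on the left and oxLDL on the right of each panel, with mutant libraries as circles and wild-type libraries as triangles. In the first 7 panels every oxLDL library lies below every untreated one, and in the panels of Capg and Coro1c every oxLDL library lies above.

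All 7 subunit genes of the Arp2/3 complex in the set fell, by log2 fold changes from -1.24 to -0.35 with a median of -0.76. Actr3, which encodes the Arp3 subunit, measured 1374.5, 1445 and 2515 CPM untreated and 689, 677 and 818 CPM with oxLDL (log2 fold change -1.24 ± 0.15, adjusted p = 0.00126). Arpc4 measured 241.9, 254.9 and 332.4 CPM untreated and 125.0, 122.0 and 164.5 CPM with oxLDL (log2 fold change -1.01 ± 0.075, adjusted p = 0.000238). Actr2, the Arp2 subunit, was 1.69-fold, Arpc5 1.90-fold, Arpc2 1.58-fold and Arpc1b 1.5-fold lower. Arpc3 changed least, 1.27-fold (adjusted p = 0.0143). None of the 7 had overlapping groups. The subunit genes of the set therefore differed in the size of their fall, from 1.27-fold to 2.36-fold. Arpc1a and Arpc5l, further subunit genes outside the set, did not pass. Their log2 fold changes were -0.01 ± 0.13 and 0.1 ± 0.093 (edgeR, adjusted p = 0.954 and 0.436). Of the Arpc1b sequence, 23.4% was shared with other genes.

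Of 9 genes for nucleation promoters, coronins and Ena/VASP proteins, 6 fell, 1 rose and 2 did not pass. Vasp, whose protein extends filaments at leading edges, measured 216.5, 298.0 and 399.6 CPM untreated and 49.6, 59.9 and 56.7 CPM with oxLDL (log2 fold change -2.43 ± 0.19, adjusted p = 0.000265). Its relative Evl fell by less, -0.98 ± 0.12 on the log2 scale. The 3 coronin genes diverged. Coro1a, the leukocyte coronin, measured 198.4, 236.2 and 411.2 CPM untreated and 51.7, 57.0 and 65.6 CPM with oxLDL (log2 fold change -2.22 ± 0.16, adjusted p = 0.000232). Coro1b was 1.73-fold lower, with 18.4% of its sequence shared. Coro1c rose, from 362.2, 304.5 and 301.4 CPM to 457.0, 482.8 and 490.9 CPM (log2 fold change 0.56 ± 0.11, adjusted p = 0.00661), with no overlap. Was, which encodes the WASP activator of Arp2/3, was 1.32-fold lower and Wasf2, a WAVE subunit, 1.94-fold lower. Wipf1, the WASP-binding partner, had a log2 fold change of -0.06 ± 0.096 (adjusted p = 0.632). Dbnl, an actin-binding adaptor gene, missed the threshold (log2 fold change -0.4 ± 0.13, adjusted p = 0.0533) although its groups did not overlap.

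Capping and severing genes split. Capza2, an alpha subunit of the barbed-end capping protein, measured 581.8, 606.1 and 736.3 CPM untreated and 269.2, 262.5 and 332.5 CPM with oxLDL (log2 fold change -1.16 ± 0.082, adjusted p = 0.000216). The other alpha subunit gene Capza1 was 1.34-fold lower and the beta subunit gene Capzb 1.47-fold lower. Gelsolin (Gsn), which severs and caps in response to calcium, was 1.5-fold lower. Capg, a capping protein of the gelsolin family that is abundant in macrophages, rose. Capg measured 407.2, 372.8 and 364.4 CPM untreated and 549.9, 610.1 and 667.4 CPM with oxLDL (log2 fold change 0.67 ± 0.11, adjusted p = 0.00373).

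Among crosslinkers, the leukocyte plastin gene Lcp1 measured 2805, 3178 and 4785 CPM untreated and 1692, 1551.5 and 1705 CPM with oxLDL (log2 fold change -1.08 ± 0.17, adjusted p = 0.00328). Filamin A (Flna) was 1.84-fold lower. The 2 alpha-actinin genes differed. Actn4 measured 287.9, 294.5 and 255.4 CPM untreated and 341.9, 334.6 and 388.5 CPM with oxLDL (log2 fold change 0.35 ± 0.10, adjusted p = 0.0389). That call ended on leaving out any single library (adjusted p from 0.0571 to 0.129). Actn1 had a log2 fold change of -0.28 ± 0.13 (adjusted p = 0.135). Fascin (Fscn1), the bundler of dendritic cell processes, was barely detected, with 4, 5 and 13 counts untreated and 2, 0 and 3 with oxLDL (adjusted p = 0.0534).

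Genes that tie actin to membranes and adhesions mostly did not pass, with 1 of 5 lower. Vcl, vinculin, measured 57.3, 67.8 and 65.5 CPM untreated and 46.7, 36.5 and 39.9 CPM with oxLDL (log2 fold change -0.63 ± 0.13, adjusted p = 0.00884). Its counts are uncertain because 37.9% of its sequence was shared with another gene model. Msn, which encodes the membrane linker moesin, measured 1453, 1624.5 and 2284 CPM untreated and 1449.9, 1687 and 1920.1 CPM with oxLDL, overlapping groups (log2 fold change -0.06 ± 0.13, adjusted p = 0.726). Without either wild-type library the value of Msn was 0.02 or 0.03. Lasp1 and ezrin (Ezr) had log2 fold changes of 0.16 and 0.29 and zyxin (Zyx) of -0.44, with adjusted p of 0.191, 0.405 and 0.0832.

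Myosin II genes fell by small amounts. Myh9, the non-muscle heavy chain, measured 1171, 1378.5 and 1854 CPM untreated and 922.5, 918.5 and 994.5 CPM with oxLDL (log2 fold change -0.61 ± 0.14, adjusted p = 0.0127). The call was lost without mutant untreated replicate 2 (adjusted p = 0.0633). The light chain gene Myl6 was 1.45-fold lower. Myl12a, a regulatory light chain gene, measured 118.3, 141.7 and 202.8 CPM untreated and 91.7, 92.6 and 106.5 CPM with oxLDL, and was 1.56-fold lower. Its near-identical neighbour Myl12b did not pass (log2 fold change -0.29 ± 0.11, adjusted p = 0.0761). Reads can be split between them, since 21.7% of the Myl12a and 18.2% of the Myl12b sequence was shared.

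Tropomyosins, which coat filaments, and calponins, which bind them, held the largest fall of the set. Cnn2, calponin 2, measured 28.1, 44.4 and 105.9 CPM untreated and 5.31, 5.6 and 8.37 CPM with oxLDL (log2 fold change -3.05 ± 0.26, adjusted p = 0.000373), or 8.30-fold lower. The untreated values spread widely, and all lay above the 3 oxLDL values. Tpm3 measured 869, 984.5 and 1278 CPM untreated and 532.0, 591.2 and 711.9 CPM with oxLDL, and was 1.70-fold lower. Tpm4 and Tpm1 were 1.47-fold and 1.46-fold lower. Tpm2 rested on 8, 37 and 31 counts untreated and 5, 4 and 7 with oxLDL (log2 fold change -2.59 ± 0.63, adjusted p = 0.018), a call lost without mutant untreated replicate 2 or either mutant oxLDL library (adjusted p from 0.0512 to 0.0646). Cnn3 had 2 to 19 counts per library and did not pass, nor did Tagln2, transgelin 2 (log2 fold change 0.16 ± 0.22, adjusted p = 0.606).

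Vim measured 2516, 2259.6 and 979 CPM untreated and 2303, 2437 and 2532 CPM with oxLDL. Wild type untreated was the only low library, and the change did not pass (log2 fold change 0.44 ± 0.29, adjusted p = 0.264). Without either wild-type library the value was -0.02 or -0.01. Srf measured 31.5, 34.5 and 44.1 CPM untreated and 24.2, 23.3 and 29.1 CPM with oxLDL (log2 fold change -0.52 ± 0.09, adjusted p = 0.00509), without overlap.

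**Figure D3:**
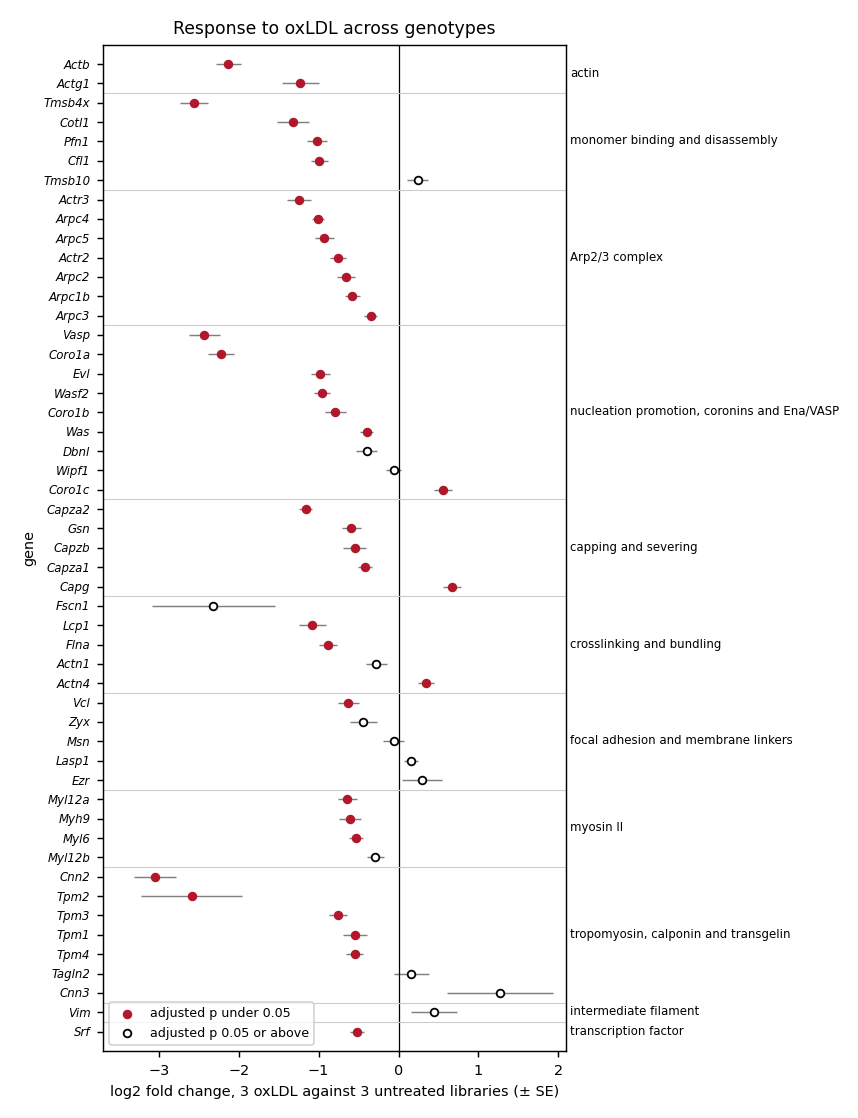
Log2 fold change of each of the 51 tested members, 3 oxLDL against 3 untreated libraries with genotype as a covariate, grouped by role. Bars are SE, filled points have an adjusted p under 0.05 and open points do not. Filled points to the right of 0 are Coro1c, Capg and Actn4, and all 7 Arp2/3 subunits of the set are filled and to the left.

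Set against the promoter search above, the 6 tested members with a CArG box (Actg1, Arpc4, Cnn2, Myl6, Srf and Vcl) all fell. Their log2 fold changes ran from -3.05 to -0.52 with a median of -0.82, and the counts of Vcl are uncertain because of its shared sequence. Of the 42 tested members with a promoter entry and no box, 26 fell, 3 rose and 13 did not pass, with a median of -0.56. Outside the set, 37 of 132 tested genes with a box were lower (28.0%) and 23 higher (17.4%), against 21.1% lower and 19.3% higher of 9370 genes without one. Cnn2 and Vcl carry the same 10 letters and fell 8.30-fold and 1.55-fold.

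In the mutant alone, with 2 libraries against 2, the picture was much the same. There, 36 of 51 members were lower and 2 higher, where 19.1% of all genes were lower and 16.5% higher, and the members' median was -0.57. Both comparisons use the same mutant libraries. Without mutant untreated replicate 2, 1 untreated mutant library remained, and calls became fewer among the members and over all genes. The members' median was then -0.5, against 0.03 for all genes. Actn1 measured 226.9 and 209.2 CPM untreated and 159.2 and 155.3 CPM with oxLDL in the mutant (log2 fold change -0.47, adjusted p = 0.0111). In wild type, 1 library against 1, there is no replicate check. Of 48 members with at least 5 CPM, 15 were at least 2-fold lower and 2 at least 2-fold higher, against 11.8% and 7.99% of 9840 genes. Cnn2 was 12.6-fold, Tmsb4x 7.65-fold, Vasp 7.05-fold, Coro1a 6.26-fold and Actb 4.98-fold lower there. The 2 higher members were Vim (2.59-fold) and Ezr (2.13-fold).

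**Figure D4:**
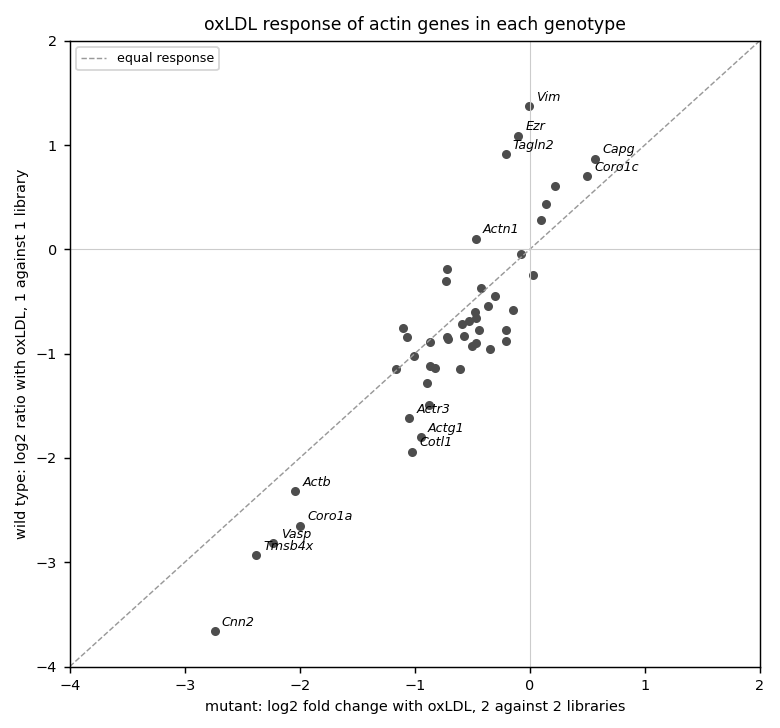
Each point is a member with at least 5 CPM in wild type, placed by its log2 fold change with oxLDL in the mutant (x axis, 2 against 2 libraries) and its log2 ratio in wild type (y axis, 1 against 1). Cnn2, Tmsb4x, Vasp, Coro1a and Actb sit at the lower left, and Vim, Ezr and Tagln2 lie above 0 on the wild-type axis while near 0 or below on the mutant axis.

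The difference of the oxLDL response between genotypes was tested as an interaction, which has to take the spread of the 2 single wild-type libraries from that of the mutant pairs. The 8 pancreatic genes, high in the wild type untreated and mutant oxLDL libraries, follow this contrast. Their interaction values were 18.03 to 27.59 on the log2 scale, resting on absent or nearly absent counts in the other libraries. They are part of the all-gene share with a higher value below. Their part in the members' values was not tested. No member passed with edgeR, against 0.299% of all genes with a lower and 0.189% with a higher value in the mutant. At an unadjusted p under 0.05 there were 13 of 51 members, against 11.0% of all genes, and DESeq2 called 3. The nearest to the threshold was Tagln2, at 243.9, 228.6 and 123.0 CPM untreated and 201.1, 208.1 and 230.5 CPM with oxLDL (interaction -1.11 ± 0.16 on the log2 scale, adjusted p = 0.0722). Vim (-1.38 ± 0.25, adjusted p = 0.14) and Cotl1 (0.92 ± 0.19, adjusted p = 0.187) were the other two that DESeq2 called, with adjusted p of 2.45e-08 and 0.00994 there. Tagln2 had 0.000102. With library size alone as the scale, edgeR called Tagln2 (-1.21, adjusted p = 0.0384), and without a filter on low counts it called Tagln2, Vim, Cotl1 and Ezr. Ezr measured 46.2, 36.7 and 26 CPM untreated and 40.8, 36.2 and 55.3 CPM with oxLDL (interaction -1.19 ± 0.25, adjusted p = 0.192). For Tagln2, Vim and Ezr the wild type untreated library was the lowest of the 6.

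Between genotypes, untreated mutant cells had lower levels of part of the set than the single untreated wild-type library. With 2 libraries against 1, the wild-type arm has no spread of its own, and the SEs and adjusted p take it from the mutant pairs, so they compare the mutant with that library. In that comparison 10 of 51 members were lower in the mutant and 2 higher, where 2.82% of all genes were lower and 4.24% higher. At an unadjusted p under 0.05 there were 36 of 51, against 27.1% of all genes. The wild-type library lay above both mutant ones for 38 members (42.4% of all genes) and below both for 11 (38.7%). The lower genes were Coro1b, Coro1a, Cnn2, Cotl1, Myl12b, Zyx, Actr3, Pfn1, Myl12a and Capzb. Coro1b measured 265.9, 284.5 and 496.1 CPM untreated (log2 fold change -0.85 ± 0.11, adjusted p = 0.0221). Coro1a differed by -0.92 ± 0.14 (adjusted p = 0.0283) and Cnn2 by -1.54 ± 0.25 (adjusted p = 0.03). Cotl1, at 375.7 and 403.1 against 685.8 CPM, differed by -0.82 ± 0.13 (adjusted p = 0.03). Myl12b, at 128.0 and 123.8 against 198.8 CPM, differed by -0.66 ± 0.11 (adjusted p = 0.0301). The 2 higher genes were Tagln2 (0.94 ± 0.11, adjusted p = 0.0188) and Vim (1.29 ± 0.19, adjusted p = 0.0262). Actb did not pass (-0.48 ± 0.23, adjusted p = 0.25).

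These genotype calls rest on few libraries. Without mutant untreated replicate 1 or 2, the comparison sets 1 library against 1. Most or all of the members' calls were then lost, and calls became fewer over all genes too. The members' median was then -0.4 and -0.49 on the log2 scale, against -0.04 and -0.02 for all genes. With library size alone as the scale, 7 were lower and 4 higher, and the median of all genes moved from -0.01 to 0.13 on the log2 scale. The same wild type untreated library held the highest summed neutrophil markers (45.2 CPM, with Ngp at 12.5 and S100a9 at 9.92 CPM) and pancreatic transcripts, whose part in the difference was not tested. In oxLDL-treated cells no member passed between genotypes with edgeR, against 0.181% of all genes lower and 0.299% higher, 9 of 51 had an unadjusted p under 0.05 (14.3% of all genes), and DESeq2 called 2. The 8 pancreatic genes are part of the all-gene share that was higher in the mutant there, with log2 fold changes of 9.98 to 13.51. In oxLDL-treated cells the wild-type library lay above both mutant ones for 41 members (37.5% of all genes) and below both for 5 (38.8%). The members' median was -0.22, against -0.42 in untreated cells and 0.01 and -0.01 for all genes.

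Across both treatments, 2 members were lower in the mutant and none higher, against 1.51% and 2.54% of all genes. At an unadjusted p under 0.05 there were 27 of 51 (24.4% of all genes), and DESeq2 called 24 lower and 0 higher. Over all 12689 genes DESeq2 called 652 lower and 861 higher. It also called more genes than edgeR in every other genotype comparison and in the interaction. Evl measured 133.7, 112.0 and 182.0 CPM untreated and 61.6, 53.2 and 108.5 CPM with oxLDL (log2 fold change of mutant against wild type -0.74 ± 0.13, adjusted p = 0.0382). Arpc4 differed by -0.42 ± 0.077 (adjusted p = 0.0446). In both treatments the wild-type library was the highest for both genes. Arpc4 lost its call without any single library, and Evl without any but mutant oxLDL replicate 2. Without wild type oxLDL, 9 members were lower and 2 higher, but the wild type then has its untreated library alone, so that count is again the comparison in untreated cells.

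**Figure D5:**
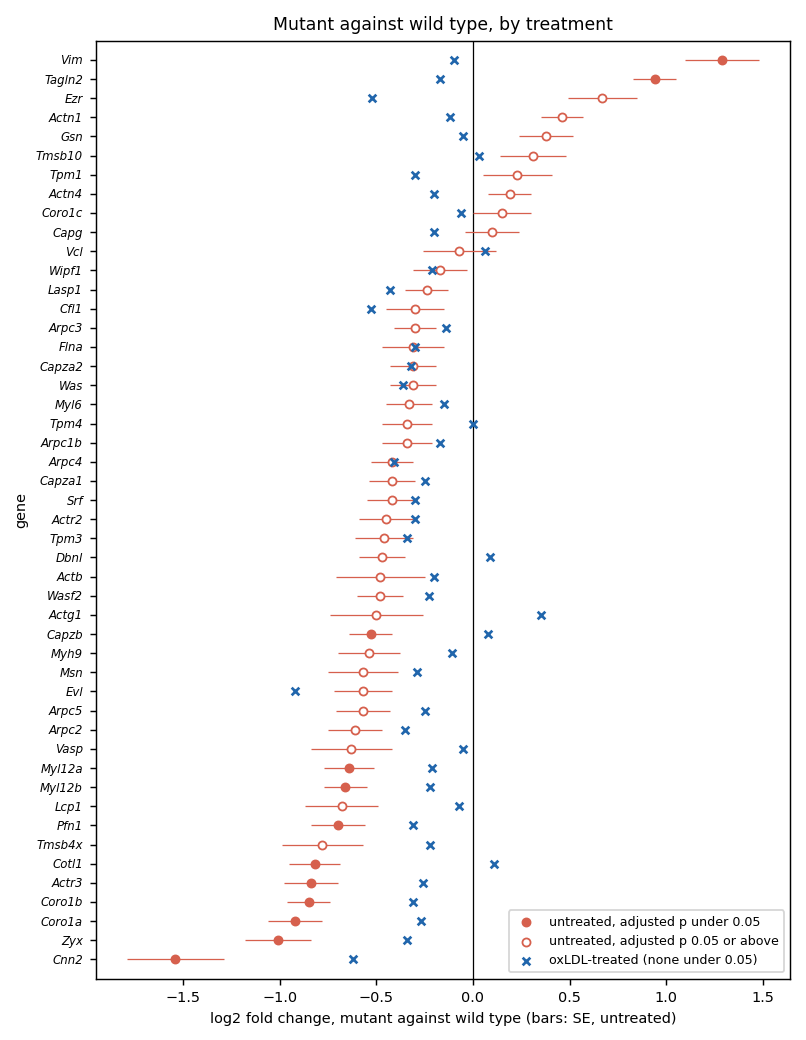
Log2 fold change of mutant against wild type for the 48 members with a mean above 5 CPM, in untreated cells (circles with SE bars, filled where the adjusted p is under 0.05) and in oxLDL-treated cells (crosses). Most circles lie left of 0, with Tagln2 and Vim filled on the right. The crosses lie between -0.92 and 0.35.

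Other genes of the pathway were read from lists that hold no member of the set, in the oxLDL comparison across genotypes, where 21.4% of all genes were lower and 19.1% higher and the median log2 fold change was 0.01. These lists, too, were chosen with earlier results of these data known. Of 11 tested among 15 further MRTF and SRF targets, 5 fell and 1 rose, with a median of -0.5. The gene that rose was Acta2, 2.83-fold (edgeR, adjusted p = 0.0191), at no more than 3.85 CPM. Filip1l was 4.27-fold, Pdlim5 2.59-fold and Lima1 1.93-fold lower. Of 8 immediate early genes driven by SRF with ternary complex factors, 5 fell and none rose, with a median of -1.32. Egr1 was 8.21-fold, Junb 2.93-fold and Fos 11.6-fold lower, and Fos also passed the interaction test (-2.28 on the log2 scale, adjusted p = 0.0207). Fos measured 166.9, 201.5 and 64.4 CPM untreated and 9.49, 9.61 and 16.2 CPM with oxLDL.

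Of 32 tested further actin-binding genes, 18 fell and 2 rose, with a median of -0.34. Aif1, a macrophage actin bundler also known as Iba1, measured 180.9, 211.1 and 407.0 CPM untreated and 11.7, 11.4 and 14.3 CPM with oxLDL, 20.1-fold lower (adjusted p = 7.61e-05). The formin gene Fmnl1 was 2.49-fold and Swap70 2.57-fold lower. The 2 that rose were Pfn2 and Myo5a. Pfn2, profilin 2, measured 2.21, 0.778 and 0.921 CPM untreated and 25.7, 12.4 and 4.41 CPM with oxLDL, 9.67-fold higher (edgeR, adjusted p = 0.00345). Myo5a measured 691.2, 557.3 and 618.7 CPM untreated and 1589.2, 1384.6 and 1015.5 CPM with oxLDL, 2.1-fold higher (adjusted p = 0.00291).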

How the data were processed

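Polyadenylated RNA of 6 macrophage libraries was sequenced as paired ends of 150 bases. Expected counts for each gene symbol, deposited by the authors, came from RSEM 1.2.15 with Bowtie2 2.1.0, tools named in the submitters' processing notes. The build listed there is hg19 although the symbols are those of mouse. Which mouse build was used is not stated. The authors also deposited a normalised signal, TMM-scaled, with edgeR named in the submitters' processing notes. It was used in 1 alternative only, in limma on log2(value + 1).

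Expected counts were rounded, filtered with filterByExpr (12689 of 17143 genes with counts) and compared in edgeR 4.0.16 (R 4.3.3) by its quasi-likelihood test with TMM factors and Benjamini-Hochberg adjustment over all genes tested. Additive and 4-group models were fitted to all 6 libraries. SE is the log2 fold change divided by the square root of F. Scripts were tested on simulated data. Alternatives used other size factors, no filter, DESeq2 1.42.0, limma 3.58.1, a replicate block and each library left out. Shared sequence is the percent of 75-base stretches of a gene's protein-coding transcripts that GENCODE M21 transcripts of other genes also hold, on either strand. Only other genes with a symbol in the deposited tables were searched, so sequence shared with genes absent from them is not counted.

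Members and lists were chosen with earlier results of these data known. Named members were Actb, Actg1, Myl9 and Srf, per role the most abundant and the most changed, the 5 largest called changes each way, and up to 5 by smallest p between genotypes. Other lists gave 3 genes by smallest p, with Acta2, Arpc1a, Arpc5l, Pfn2 and Myo5a named besides. Further members are named in their role groups so that each is accounted for. Actb, Cotl1 and Coro1b were not matched to the promoter table. Some gene lists of the pathway are not reported here.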

Additional observations from a re-analysis of the deposited data

How the results depend on the processing

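The fall with oxLDL across genotypes kept 30 to 36 lower and 2 to 3 higher members with each library left out, and stayed within 1.5 times the main counts under every other setting. In the mutant alone the ranges were 22 to 36 lower and 0 to 2 higher. Genotype counts moved more, over all genes as well as among the members. DESeq2 and the fit without a filter called more genes in every genotype comparison and in the interaction. Across treatments they called 652 of 12689 and 513 of 17143 genes lower, against 192 of 12689 in the main fit. The replicate block called more genes in all of these but the comparison across treatments. With libraries left out, untreated cells gave 0 to 10 lower and 0 to 3 higher, oxLDL-treated cells 0 to 1 lower and 0 higher, both treatments 0 to 9 lower and 0 to 2 higher (the upper ends without wild type oxLDL, which leaves the untreated comparison), and the interaction 0 in either direction. DESeq2 gave 20 lower in untreated cells, 2 in oxLDL-treated cells and 24 across treatments, and 2 lower and 1 higher for the interaction. Without a filter on low counts these were 22, 1 and 11, and 3 and 1, with 4 higher in untreated cells. With library size alone, 4 were higher in untreated cells, 0 lower across treatments and 1 lower for the interaction. Signs turned for Msn (-0.15 to 0.03 with libraries left out, 0.02 without wild type untreated and 0.03 without wild type oxLDL) and Vim (-0.02 to 0.62, at -0.02 and -0.01 without the same libraries), neither called. Without either wild-type library, the oxLDL comparison rests on the mutant alone.

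With the replicate number as a block, untreated cells gave 18 lower and 4 higher, oxLDL-treated cells 1 lower, both treatments 0 lower and the interaction 2 lower, Tagln2 (adjusted p = 0.0347) and Ezr (adjusted p = 0.0441). The block left 35 lower with oxLDL across genotypes and 2 higher, since Actn4 lost its call (adjusted p = 0.0625). Differences between replicates 1 and 2 correlated across genes between the mutant untreated and oxLDL pairs (r = 0.25 over 12689 genes, 0.02 over the members), and the labels do not say what a number marks. Depth limited Fscn1, Tpm2 and Cnn3, with at most 37 counts in a library.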
